A study of Mus musculus with 18 samples.

Results

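The genes described here were Nudt7 and 9 further genes that build, split or recycle coenzyme A (CoA), namely Nudt19, Acot1, Acot3, Acot4, Acot8, Acot12, Pank1, Pank3 and Vnn1. They are a list of CoA hydrolases, acyl-CoA thioesterases and enzymes of CoA synthesis and salvage, selected on the log2 ratio of Nudt7, which was lower in hypothyroid than in control liver on these arrays. Their transcripts were found on the array by the accession of each probe, matched to the current gene symbol. This gave 12 of 41174 probes and 10 of the 16535 genes that could be named. All 12 probes were above the background limit on all 10 arrays, so no member was lost to the filter on dim probes. Nudt7 and Acot4 had 2 probes each, and the brighter probe stands for the gene unless the second is named.

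CoA carries acyl groups in fatty acid oxidation and synthesis, and the liver changes the size of its CoA pool with feeding and fasting. Synthesis starts with the phosphorylation of pantothenate (vitamin B5) by the pantothenate kinases, to which Pank1 and Pank3 belong. Nudix enzymes such as Nudt7 and Nudt19 split CoA and its acyl esters inside peroxisomes, and acyl-CoA thioesterases (Acot) release the free fatty acid and CoA. Vanin 1, the product of Vnn1, is a pantetheinase that returns pantothenate from breakdown products. Several of these genes are known targets of PPARA, the nuclear receptor that adapts the liver to fatty acids, and thyroid hormone is a known regulator of hepatic lipid metabolism.

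Livers were from C57BL/6 male pups at PND 15, 1 pup from each litter. Pups of the control group were from dams on 1% sugar water, and pups of the hypothyroid group from dams given the same sugar water with 0.05% methimazole (MMI) and 1% perchlorate from PND 12. MMI blocks hormone synthesis and perchlorate blocks iodide uptake in the thyroid. According to the methods of the study, pups of both groups also had an injection of PBS before they were killed. The pups were exposed through the dam and her milk or the shared drinking water, so the dose of each pup was not controlled. RNA of 5 control and 5 hypothyroid livers was hybridised on 2-colour arrays against a common reference of mixed mouse RNA, and each value below is the log2 ratio of liver over reference after normalization. In whole liver, fewer cells of a type and less RNA per cell cannot be told apart.

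Several arrays stood apart from the rest. With the dyes as labelled, control 832 and hypothyroid 576, which shared slide 141, correlated at -0.97 and -0.98 with the mean of the other slides, so the channels of both were exchanged here. The methods of the study put liver RNA in Cy5 throughout, so the exchange rests on these correlations and not on the labels. Values with the dyes as labelled are given beside the main results. Control 616 correlated at 0.88 with the other slides, against 0.97 to 0.99 in size for the other 9 arrays, and had 568 spots marked as outliers against 82 to 154. Its mean over 5 hepatocyte markers was 2.88, against 4.24 to 4.85 in the other control livers and 4.46 to 4.93 in the hypothyroid livers. Transcripts of the exocrine pancreas were high in 3 control livers. The mean over 7 such markers was 3.96 in control 832, 4.04 in control 522 and 2.65 in control 616, against 0.34 in control 881, 0.27 in control 391 and 0.17 to 0.36 in the hypothyroid livers. Spots marked as outliers were left out, so the marker means lack Tat in control 522 and Ctrb1 in control 616. All 5 hepatocyte markers kept by the filter were measured above the reference in both groups, with the lowest control mean at 2.76 for Alb. All 5 hepatocyte markers also had a higher mean in hypothyroid liver (median difference 0.61, or 0.29 without control 616), 2 of them at an unadjusted p below 0.05 and 0 called after adjustment by limma. The part of these features in the results was not tested, and the differences of the members are also given without control 616 and without the 3 arrays high in pancreas transcripts. The last setting left 2 control arrays against 5 hypothyroid arrays.

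Sequences are shown for the 4 genes whose mean levels differed most between the groups, so that the promoters of Nudt7, Nudt19, Acot3 and Acot4 can be set beside each other, and for the miRNAs encoded within the Pank genes, because these were measured by another assay in livers of the same experiment. Promoters are from RefSeq on GRCm38.p6, run 5′ to 3′ from 250 bases before to 50 bases after the start of the transcript, and capitals mark the hexamer AGGTCA on either strand, the core element that thyroid hormone receptors, PPARA and other nuclear receptors bind.
Nudt7 (chr8:114133368-114133667, plus strand): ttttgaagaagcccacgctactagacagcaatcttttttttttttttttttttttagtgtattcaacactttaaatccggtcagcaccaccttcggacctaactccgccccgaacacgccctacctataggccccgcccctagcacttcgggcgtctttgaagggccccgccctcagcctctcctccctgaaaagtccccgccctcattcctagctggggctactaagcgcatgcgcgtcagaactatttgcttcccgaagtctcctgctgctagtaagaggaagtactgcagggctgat
Nudt19 (chr7:35555879-35556178, minus strand): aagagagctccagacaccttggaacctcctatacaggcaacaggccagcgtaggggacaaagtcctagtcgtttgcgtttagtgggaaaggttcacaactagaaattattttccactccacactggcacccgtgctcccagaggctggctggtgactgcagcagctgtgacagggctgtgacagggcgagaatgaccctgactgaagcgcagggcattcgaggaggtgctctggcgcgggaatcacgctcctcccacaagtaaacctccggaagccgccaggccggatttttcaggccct
Acot4 (chr12:84038129-84038428, plus strand): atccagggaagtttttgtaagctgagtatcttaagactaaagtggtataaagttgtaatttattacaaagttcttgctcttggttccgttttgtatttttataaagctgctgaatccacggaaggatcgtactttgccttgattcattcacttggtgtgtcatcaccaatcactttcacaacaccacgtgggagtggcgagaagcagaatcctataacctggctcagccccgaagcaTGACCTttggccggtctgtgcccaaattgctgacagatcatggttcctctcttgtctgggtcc
Acot3 (chr12:84051894-84052193, plus strand): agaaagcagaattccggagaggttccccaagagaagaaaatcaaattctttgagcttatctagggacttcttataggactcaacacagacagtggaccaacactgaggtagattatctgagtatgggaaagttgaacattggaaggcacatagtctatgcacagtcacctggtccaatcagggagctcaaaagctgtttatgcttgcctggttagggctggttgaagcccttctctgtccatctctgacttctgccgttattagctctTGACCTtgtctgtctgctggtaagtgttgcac

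The promoters of Acot3 and Acot4 each held 1 such hexamer, read on the opposite strand as TGACCT, and those of Nudt7 and Nudt19 held none in this window. RefSeq gave a promoter for 9 of the 10 members, 12 promoters in all, and the third member with one was Acot12. Of 32851 promoters of the same length, 16.3% held at least 1. The direct repeats AGGTCANAGGTCA and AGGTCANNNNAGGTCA, searched on both strands and overlapping with the hexamer by construction, were in no member promoter and in 0.0396% and 0.0152% of all promoters. A match describes these letters only and is no evidence of binding. Acot1, Acot4 and Acot3 lie next to each other on chromosome 12 in the order Acot2, Acot1, Acot4, Acot3, Acot5 and Acot6, with no other protein-coding gene between them, whereas the other 7 members lie on chromosomes 8, 7, 2, 13, 19, 11 and 10.

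Nudt7, the peroxisomal CoA diphosphohydrolase of liver, was lower in every hypothyroid liver than in any control liver. The log2 ratio of its brighter probe (A_51_P148670) was 4.35, 4.38, 3.91, 3.90 and 3.91 in control 881, 832, 522, 616 and 391. In hypothyroid 891, 576, 311, 723 and 626 it was 3.50, 3.17, 3.03, 3.02 and 2.94. The groups did not overlap, and hypothyroid 891 was the hypothyroid liver nearest to the controls. The means were 4.09 ± 0.25 and 3.13 ± 0.22 (SD, n = 5 per group), a difference of -0.96 (limma SE 0.14), or 1.94-fold lower. On a linear scale the transcript was 14.9 to 20.8 times the reference in control liver and 7.67 to 11.3 times in hypothyroid liver. The 4 slides that held both groups gave -0.96 (slide 100), -0.89 (slide 136), -0.85 (slide 139) and -1.21 (slide 141). The difference was -1.01 without control 616 and -0.999 without the 3 control arrays high in pancreas transcripts, where 2 control arrays were left. With the dyes as labelled it was -0.47 (SE 1.96), since 1 array of each group then has the opposite sign and the groups overlap, and the sign within slide 141 turns.

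The second Nudt7 probe (A_52_P136914) had lower ratios with the same order of groups. It read 3.51, 3.84, 3.22, 2.84 and 3.41 in the control livers and 2.81, 2.77, 2.30, 2.63 and 2.78 in the hypothyroid livers, in the same order of animals. The lowest control, 616, and the highest hypothyroid liver, 891, differed by little, and the groups did not overlap. The difference was -0.71 (SE 0.17), or 1.63-fold lower. It ran from -1.07 to -0.71 within slides 136, 139 and 141 but was -0.06 within slide 100, which holds control 616, and was -0.84 without that array. Over the 10 arrays the probes correlated at r = 0.89 (Spearman 0.90), as a description of measurements from the same libraries.

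Because the values of this comparison chose Nudt7, no p-value of a member is given, and the counts that follow describe the arrays and support nothing about the members. Over all 32053 probes kept, 3 were called at an adjusted p below 0.05 by limma (0.00936%), 2 of them lower (0.00624%), and 0 of the 12 member probes were among them. At an unadjusted p below 0.05, 2393 probes passed (7.47%), 1305 of them lower (4.07%) and 1088 higher (3.39%). Groups that did not overlap were found for 316 probes lower in hypothyroid liver (0.986%) and 347 higher (1.08%). Of the 10 members 5 had a lower mean, against 53.4% of all probes, and their median difference was -0.06 against -0.01 over all probes.

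**Figure D1:**
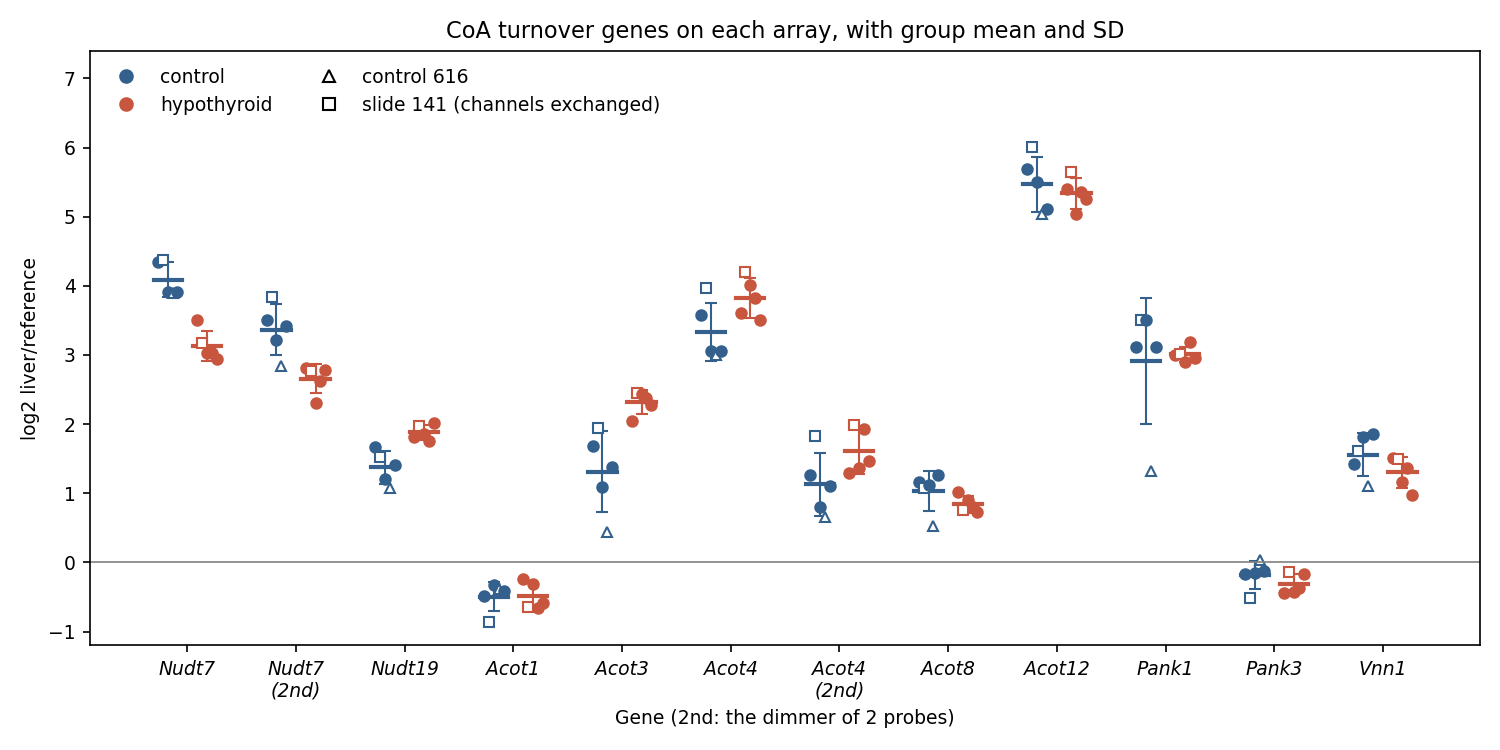
Log2 liver/reference (y axis) of the 12 member probes (x axis) on each array, with control in blue, hypothyroid in red, and bars for the mean and SD of 5 arrays. Triangles mark control 616 and squares the arrays of slide 141. Both Nudt7 probes separate the groups downwards and Nudt19 and Acot3 upwards, whereas the remaining probes overlap.

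Nudt19 encodes the other peroxisomal CoA diphosphohydrolase, known mainly from kidney, and differed in the opposite direction to Nudt7. Its ratio was 1.67, 1.52, 1.21, 1.08 and 1.41 in the control livers and 1.81, 1.97, 1.85, 1.76 and 2.01 in the hypothyroid livers. Every hypothyroid liver was above every control liver, with control 881 the highest control. The means were 1.38 ± 0.24 and 1.88 ± 0.11 (SD, n = 5 per group), a difference of 0.50 (SE 0.11), or 1.42-fold higher. It was higher on all 4 slides with both groups, by 0.14 on slide 139 to 0.93 on slide 100. Without control 616 the difference was 0.43, without the 3 control arrays high in pancreas transcripts it was 0.34, and with the dyes as labelled it was 0.33 (SE 0.90).

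Acot3, a peroxisomal thioesterase for long-chain acyl-CoA, differed in the same direction as Nudt19 and by more. The ratio was 1.69, 1.95, 1.09, 0.44 and 1.38 in the control livers and 2.04, 2.46, 2.44, 2.38 and 2.28 in the hypothyroid livers. The control livers were spread over more than 1 log2 unit and lay below all hypothyroid livers, with control 832 the nearest. The means were 1.31 ± 0.58 and 2.32 ± 0.17 (SD, n = 5 per group), a difference of 1.01 (SE 0.24), or 2.01-fold higher. Control 616 was the lowest, and without it the difference was 0.79, as against 0.78 without the 3 arrays high in pancreas transcripts. Within slides it was 1.85 (slide 100), 1.35 (slide 136), 0.35 (slide 139) and 0.51 (slide 141), so its size varied more than its direction. The reference channel was well above background on 5 of the 10 arrays, which limits the precision of this ratio.

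Acot4, a peroxisomal thioesterase known for succinyl-CoA and other dicarboxylic esters, lies beside Acot3 and was higher on average with overlap. Its brighter probe (A_52_P215170) read 3.58, 3.96, 3.06, 2.99 and 3.06 in the control livers and 3.60, 4.20, 4.01, 3.82 and 3.50 in the hypothyroid livers. Control 832 was within the range of the hypothyroid livers, and control 881 was above hypothyroid 626. The difference was 0.50 (SE 0.20), or 0.41 without control 616 and 0.51 without the 3 arrays high in pancreas transcripts. The second probe (A_51_P396141) read 1.27, 1.82, 0.80, 0.65 and 1.10 against 1.30, 1.98, 1.36, 1.93 and 1.46, also with overlap and with a difference of 0.48 (SE 0.22). Both probes were higher on all 4 slides with both groups, by 0.02 and 0.03 on slide 139 and by up to 0.95 and 0.81. The reference channel was well above background on 2 of the 10 arrays for the brighter probe and on all 10 for the second.

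**Figure D2:**
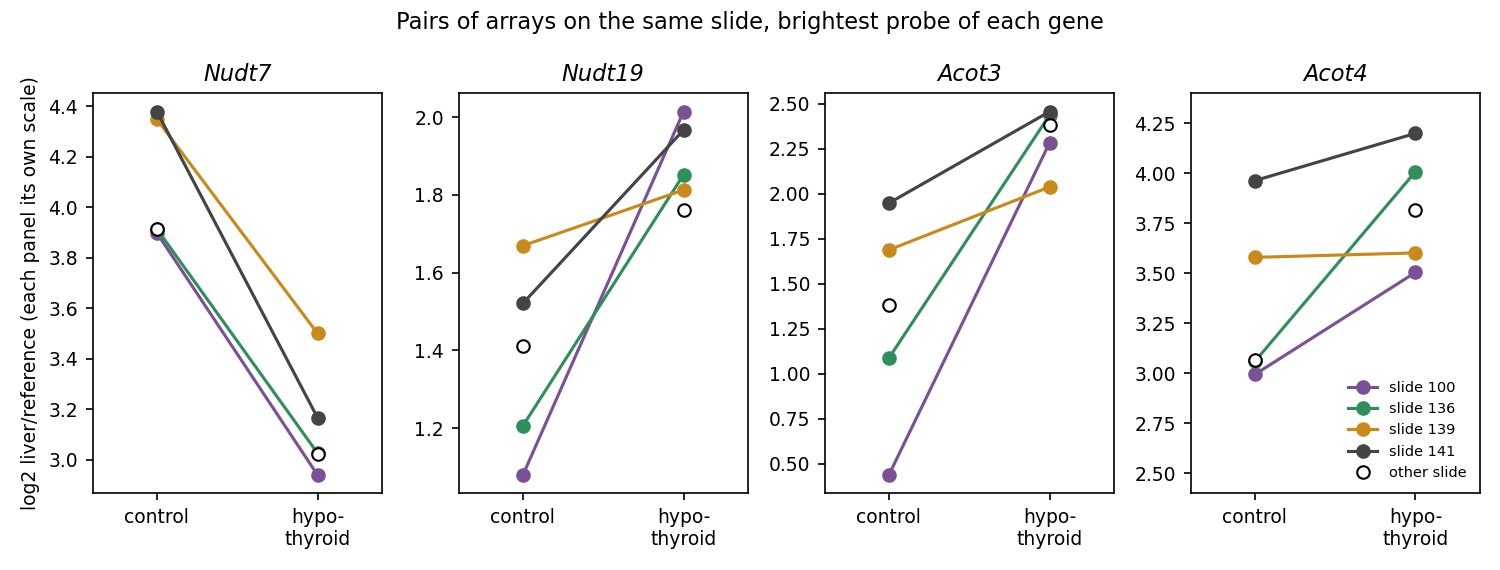
Log2 liver/reference (y axis, own scale in each panel) of control and hypothyroid liver (x axis) for Nudt7, Nudt19, Acot3 and Acot4, with lines joining the 2 arrays of each of the 4 slides that held both groups and open circles for the other slides. Nudt7 is lower in the hypothyroid liver on each joined slide and the other 3 genes are higher, with the smallest gaps for these on slide 139.

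The other thioesterases overlapped between groups. Acot1, a cytosolic long-chain acyl-CoA thioesterase, read -0.49, -0.86, -0.33, -0.39 and -0.41 in the control livers and -0.24, -0.64, -0.31, -0.65 and -0.58 in the hypothyroid livers. The difference was 0.01 (SE 0.12), less than the spread within either group, and 0.04 and -0.04 without control 616 and without the 3 arrays high in pancreas transcripts. Acot1 and its neighbour Acot2 are closely similar in sequence, and whether the probe separates them was not examined, so the Acot1 value is uncertain in that respect.

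Acot8, a peroxisomal thioesterase with a broad range of substrates, read 1.17, 1.07, 1.11, 0.53 and 1.27 in the control livers and 1.01, 0.75, 0.90, 0.80 and 0.73 in the hypothyroid livers. Control 616 was below all hypothyroid livers and the other 4 controls were above them. The difference was -0.19 (SE 0.13), and -0.32 without control 616 and -0.38 without the 3 arrays high in pancreas transcripts. Acot12, a cytosolic thioesterase for acetyl-CoA, read 5.68, 6.00, 5.50, 5.03 and 5.10 against 5.41, 5.64, 5.04, 5.36 and 5.25. The groups overlapped, although control 881 and 832 were above every hypothyroid liver. The difference was -0.13 (SE 0.18), -0.24 without control 616, 0.007 without control 832 and -0.06 without the 3 arrays high in pancreas transcripts.

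On the side of synthesis and salvage no member separated the groups. Pank1, a pantothenate kinase of liver, read 3.11, 3.51, 3.50, 1.32 and 3.11 in the control livers and 2.997, 3.02, 2.90, 3.19 and 2.95 in the hypothyroid livers. Control 616 was far below the other 9 arrays and decided the sign. The difference was 0.10 (SE 0.35) with it and -0.30 without it, when hypothyroid 723 alone was above the lowest control, and -0.10 without the 3 arrays high in pancreas transcripts.

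Pank3, a pantothenate kinase of broad expression, read -0.17, -0.52, -0.15, 0.04 and -0.12 in the control livers and -0.45, -0.14, -0.42, -0.37 and -0.17 in the hypothyroid livers. The groups overlapped and the difference was -0.13 (SE 0.11), or -0.07 without control 616 and -0.16 without the 3 arrays high in pancreas transcripts. Vnn1, the pantetheinase, read 1.42, 1.61, 1.81, 1.10 and 1.85 in the control livers and 1.51, 1.49, 1.16, 1.37 and 0.98 in the hypothyroid livers. The lowest value among the controls was that of 616, and the difference was -0.26 (SE 0.15), or -0.37 without that array and -0.33 without the 3 arrays high in pancreas transcripts, with overlap in each case. Across the 12 member probes control 616 was the lowest control for 10, all but those of Acot1 and Pank3.

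**Figure D3:**
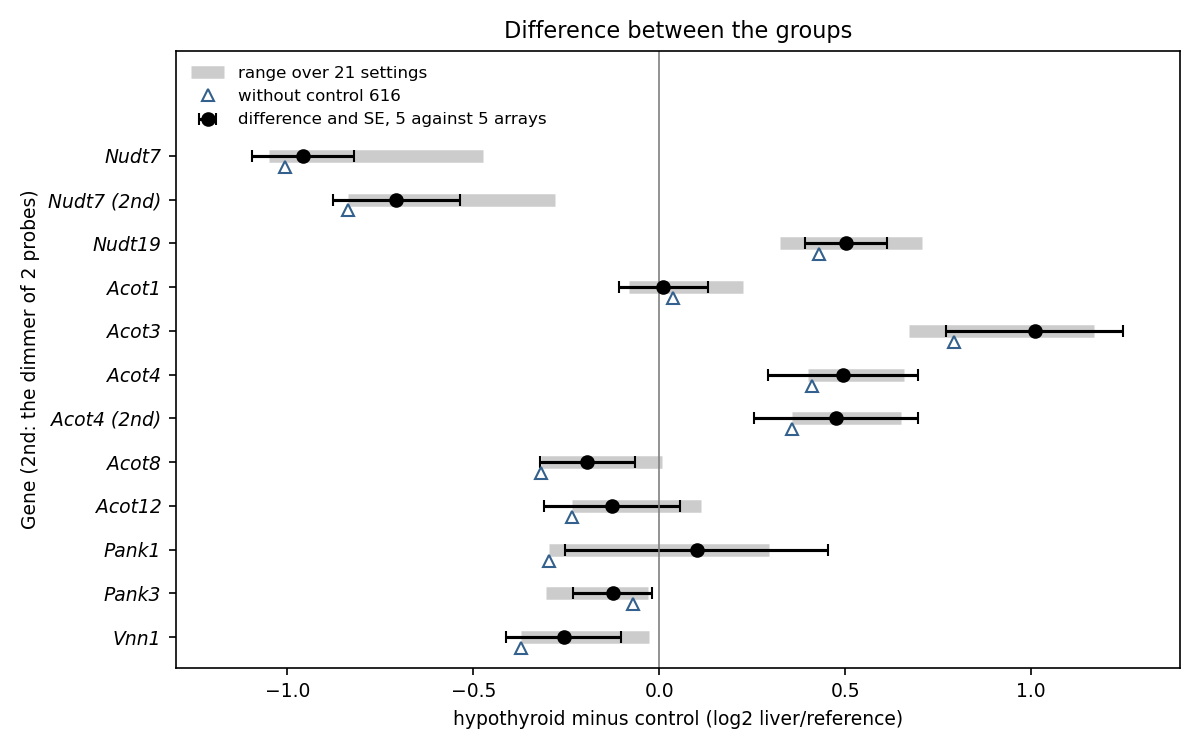
Hypothyroid minus control in log2 liver/reference (x axis) for each member probe (y axis). Points and bars are the difference and its limma SE over 5 against 5 arrays, triangles the difference without control 616, and grey bars the range over 21 alternative settings. The grey bars of Nudt7, Nudt19, Acot3, Acot4, Pank3 and Vnn1 stay on 1 side of 0, and the triangle of Pank1 lies on the other side of 0 from its point.

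**Figure D4:**
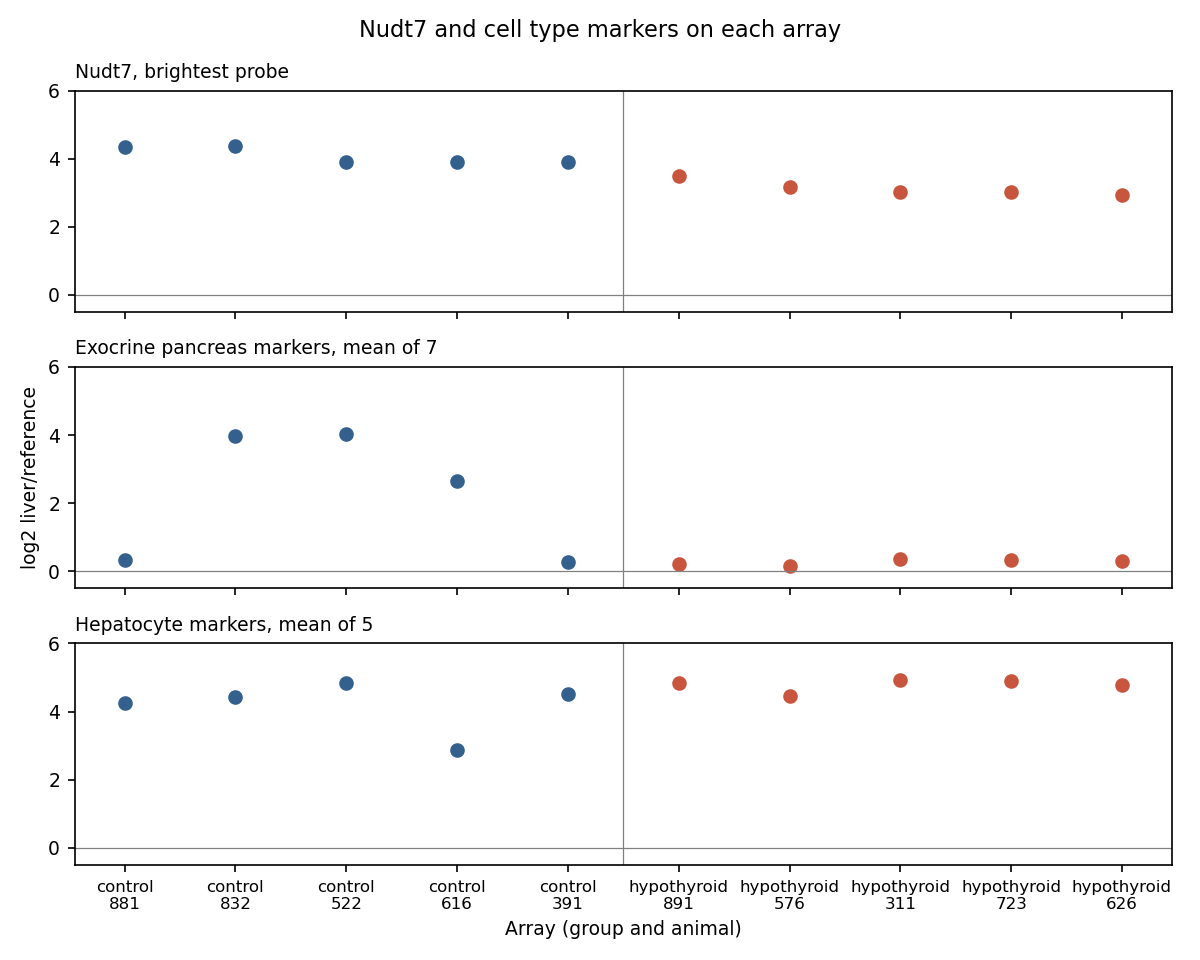
Log2 liver/reference (y axis) on each array (x axis) of the brighter Nudt7 probe, of 7 exocrine pancreas markers (mean) and of 5 hepatocyte markers (mean), with control in blue and hypothyroid in red. Control 832, 522 and 616 are high in pancreas markers and control 616 is low in hepatocyte markers. The means lack Tat in control 522 and Ctrb1 in control 616, whose spots were left out as outliers. Nudt7 reads 4.38, 3.91 and 3.90 in these 3 livers and 4.35 and 3.91 in the other 2 controls.

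In control liver 8 of the 10 members were above the reference at an adjusted p below 0.05 by limma, against 36.2% of all probes kept. The control ratios of Nudt7, 17.0 times the reference, are part of the comparison that chose it and are given as a description. Pank1 was at 7.53, Vnn1 at 2.95, Nudt19 at 2.60 and Acot8 at 2.04 times the reference, which was well above background on all 10 arrays for each. For Acot12, Acot4 and Acot3 the reference was well above background on 8, 2 and 5 of the 10 arrays, so the size of their ratios depends on how background was treated. Acot12 was at 44.2 times (log2 5.47, or 7.52 with the processed signals), Acot4 at 10.1 times (3.33, or 6.78) and Acot3 at 2.48 times (1.31, or 3.90). The second Acot4 probe, with a measured reference on all 10 arrays, was at 2.19 times. No order among these genes was drawn from the ratios, which are not levels in liver. Acot1 was lower in liver than in the reference, by 1.41-fold (adjusted p = 0.000279 by limma), in a direction taken by 33.5% of all probes. Pank3 was also lower, by 1.14-fold (adjusted p = 0.0463 by limma), a call that did not hold when any 1 of 8 arrays was left out (all but control 616 and hypothyroid 576), without slide 141, with the processed signals, with median centring or without the filter on dim probes. With the dyes as labelled 0 of the 10 members passed in either direction, because the control group then held 1 array of opposite sign.

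The members did not vary as 1 group. Over the 10 arrays Nudt19 and Acot3 correlated at r = 0.94 and Acot3 and Acot4 at 0.86, whereas Nudt7 correlated at -0.66 with Nudt19 and -0.62 with Acot3. With each group's mean removed, Nudt7 correlated positively with both, at 0.48 and 0.45, so the negative values came from the difference between the groups. Nudt19 and Acot3 then correlated at 0.82, and Acot3 and Acot4 at 0.79. When control 616 was also left out, these values were 0.375, 0.336, 0.663 and 0.88 in the same order. These are descriptions over 10 arrays that share slides and control 616, with no test.

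Of the 14625 named genes kept by the filter, those most like Nudt7 over the 10 arrays were Slc46a3, a lysosomal transporter (r = 0.92), Fam107b (0.91), Flywch2 (0.91), Csrp3, a muscle LIM protein (0.91), and Bcl3, a co-regulator of NF-kappaB (0.90). Slc46a3 read 1.86 to 2.38 in control liver and 1.42 to 1.78 in hypothyroid liver. In the order named, these genes differed between the groups by -0.52, -0.38, -0.50, -1.01 and -0.84. Nudt7 was chosen for its lower level in hypothyroid liver and the group means were not removed here. The ranking therefore favours genes that are also lower in hypothyroid liver, and variation shared within the groups was not examined. Without control 616 the order was Frmd8 (0.98), Csrp3 (0.97), Flywch2 (0.94), Abca3 (0.94) and Nsdhl (0.94), and 26 of the 50 genes most like Nudt7 were shared between both rankings. Without slide 141 Slc46a3, Fam107b and Flywch2 stood at 0.93, 0.92 and 0.91, and Nsdhl at 0.52 over the remaining 8 arrays. No member was among these genes, the nearest being Acot8 at 0.55 (rank 878), or 0.85 (rank 102) without control 616. That array also moved Pank1, from 0.05 (rank 7282) to 0.65 (rank 752) without it.

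Other genes of CoA and fatty acid metabolism, PPARA targets and regulators were examined as 6 lists without the members. They held 69 genes in all, of which 66 were on the array under a current symbol and 63 passed the filter. None was called at an adjusted p below 0.05 by limma in either direction, against 0.00936% of all probes, and 1 passed at an unadjusted p below 0.05, Crot, the peroxisomal carnitine octanoyltransferase, with a difference of 0.28 (SE 0.12), or 0.19 without control 616, against 7.47% of all probes at that level. Their groups overlapped in every case, so no gene of these lists met the rule for naming, and those named here were chosen after their values were seen. Their means were lower in hypothyroid liver for 22 and higher for 41, and with median centring lower for 7. Among 8 further genes of CoA synthesis and transport 2 were lower and 6 higher, with a median difference of 0.05. The list of further diphosphohydrolases and pantetheinases held Nudt8, Nudt12, Nudt13 and Vnn3, with a median of -0.04. Their differences ran from -0.14 for Nudt13 to 0.34 for Vnn3, the latter 0.02 without control 616. Nudt8, the mitochondrial relative of Nudt7, differed by -0.09 (SE 0.06).

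Among 12 other thioesterases 8 were lower, with a median of -0.06. Among 13 acyl-CoA synthetases, which attach CoA to fatty acids, 10 were higher, with a median of 0.17, or 0.13 without control 616. Among 21 genes of peroxisomal beta-oxidation and PPARA targets 16 were higher and the median was 0.22, which became 0.06 without control 616. In that list Cyp4a14, a PPARA target, differed by 0.51 (SE 0.27), or 0.22 without control 616. Ppara itself differed by 0.18 (SE 0.13), or 0.06 without that array, and the 5 regulators had a median of 0.03. The differences of all 63 genes ran from -0.41 for Fgf21, a hepatic hormone, to 0.69 for Slc27a2, a synthetase of very long-chain acyl-CoA. Without control 616 these were -0.27 and 0.17, and the lowest difference was -0.55 for Abcd3, a peroxisomal transporter of acyl-CoA. As genes known to respond to thyroid hormone, Thrsp differed by -1.16 (SE 0.30), Dio1 by -0.94 (SE 0.34) and Me1 by -0.47 (SE 0.11). Without control 616 these were -1.38, -1.27 and -0.44. Over all 10 arrays the groups overlapped for Thrsp and Dio1 and did not for Me1. Each had an unadjusted p below 0.05 there, and none was called after adjustment by limma (adjusted p = 0.344, 0.605 and 0.272).

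The miRNAs miR-107 and miR-103 are encoded within the Pank genes, which was checked by coordinates on GRCm38.p6. The mature sequences from RefSeq are shown 5′ to 3′ with the seed, bases 2 to 8, in capitals, because both share it. The miR-103 sequence is encoded at chr11:35782447-35782469 within Pank3 and again at chr2:131288103-131288125 within Pank2, both on the plus strand, and that of miR-107 at chr19:34820700-34820722 within Pank1 on the minus strand.
miR-103: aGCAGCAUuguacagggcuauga
miR-107: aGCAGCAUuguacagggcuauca

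The mature forms differ by G22C, with miR-103 given first and positions counted from 1 at the 5′ end, so 22 of 23 bases are the same. They were measured by TaqMan low density arrays in 4 control and 4 hypothyroid livers, and levels are given as minus delta Ct against U6, in cycles, on which 1 unit is a doubling. miR-103 read -8.83, -8.74, -8.33 and -8.43 in control 1 to 4 and -8.40, -8.64, -8.54 and -9.66 in hypothyroid 1 to 4. Hypothyroid 4 was the lowest and the other 7 livers overlapped. The difference was -0.23 (SE 0.33, adjusted p = 0.751 by limma), with a 95% interval of -0.998 to 0.544 and p = 0.657 by an exact two-sided permutation test.

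miR-107 read -11.15, -11.25, -10.96 and -10.41 in the control livers and -10.88, -10.29, -10.31 and -11.27 in the hypothyroid livers. The groups overlapped, and the difference was 0.26 (SE 0.33, adjusted p = 0.713 by limma), with a 95% interval of -0.50 to 1.01 and p = 0.4 by the exact permutation test, for which 0.0286 is the smallest value possible. Over the 563 miRNAs tested limma called 0 at an adjusted p below 0.1 (0%), and 22 passed at an unadjusted p below 0.05 (3.91%). The labels name a first and a second study, with 2 animals of each group in either. Within them miR-103 differed by 0.26 and -0.72 and miR-107 by 0.62 and -0.11, so both signs turned. With the mean of the well-read miRNAs in place of U6 the differences were -0.54 and -0.06. The mature miRNAs were read in other RNA extracts than the arrays, and no animal could be matched between the assays by its label.

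**Figure D5:**
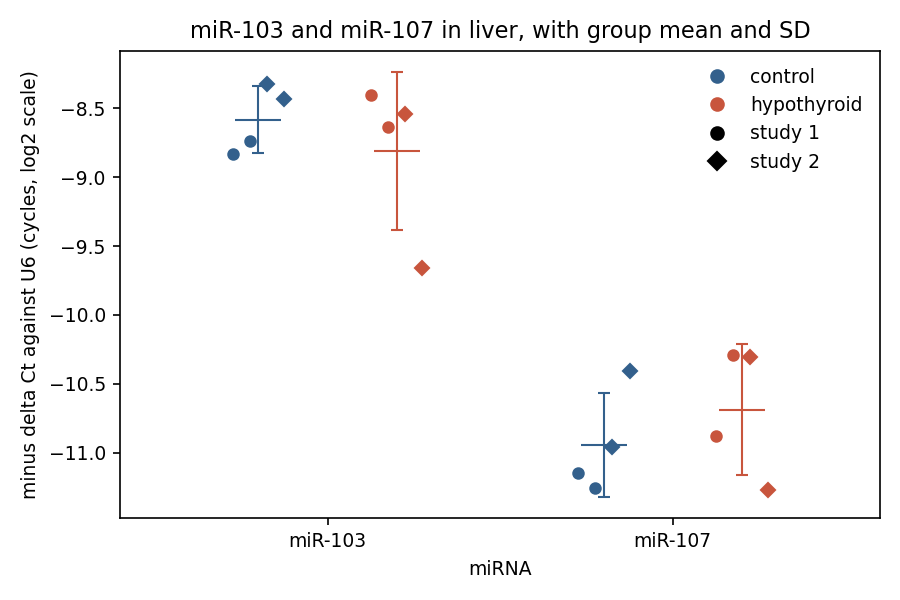
Minus delta Ct against U6 in cycles (y axis) of miR-103 and miR-107 (x axis) in 4 control livers (blue) and 4 hypothyroid livers (red), with bars for the mean and SD, circles for the first study and diamonds for the second. The groups overlap for both miRNAs, and the diamond of hypothyroid 4 is the lowest point for each.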

How the data were processed

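Two-colour arrays of 5 control and 5 hypothyroid livers and TLDA cards of 4 livers per group were used. The deposited array values are, for both channels, the median pixel intensity of every spot and of its surroundings, with the processed intensities and flags of the scanner software. For the TLDA they deposited threshold cycles and a delta Ct per assay against U6, which is a log2 value in cycles, and the column of the authors' own comparison (p-value, q-value, fold change) was not used. Groups, animal numbers, slides and studies were taken from the labels.

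Here the median intensities were corrected with normexp (offset 50) and loess (span 0.2) in limma 3.58.1 (R 4.3.3), with control spots at weight 0, outlier spots left out and spots of a probe averaged. Probes were kept where the liver channel exceeded a limit of 3 trimmed SDs above the 5% trimmed mean of negative control spots on at least 4 of 5 arrays of a group, which left 32053 of 41174. Between 75.9% and 85.4% of probes were above that limit on an array, and precision is limited by the number of arrays. The groups were compared with lmFit and eBayes over all 10 arrays with Benjamini-Hochberg adjustment, where limma stands in for the Fs test of the study. The channels of slide 141 were exchanged. Symbols came from the RefSeq table of GRCm38.p6, used for names and neighbours, by accession (23374 probes matched). limma was also run on minus delta Ct for 563 miRNAs with at least 2 animals per group. The random block used statmod 1.5.0.

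The members, gene lists and tests were chosen with earlier results of these data known. The lists of other genes were 6 (synthesis and transport, diphosphohydrolases and pantetheinases, thioesterases, synthetases, peroxisomal beta-oxidation with PPARA targets, regulators). Marker lists were for hepatocyte, exocrine pancreas, skeletal muscle, erythroid, Kupffer, endothelial and biliary cells. Named genes were all members, called genes of the lists, up to 3 per direction without overlap, the 5 genes most like Nudt7 with and without control 616, miR-103, miR-107, Dio1, Thrsp and Me1. Alternatives were the background correction, processed signals, median centring, loess span 0.3, the dyes as labelled, slide 141 or each array left out, slide as a block, other filters and averaged probes. Leaving out the 3 control arrays high in pancreas transcripts was added after seeing the data. On simulated data for the comparison of hypothyroid against control arrays, 90.5% of 200 changes of 1 log2 unit among 32053 probes were recovered, and 8.12% of the probes called were false. The simulated noise was normal and independent between probes and arrays, with no slide effect and no array that stood apart. These shares therefore check the code and do not give the share of changes found on the real arrays.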

Additional observations from a re-analysis of the deposited data

Results flagged for a closer look

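Of 28 groups of member or miRNA values examined for a sample far from the others, 2 stood out (7.14%), where chance gives about 5%. Both were control 616. For Acot8 it was the lowest control, and its gap to the next control was 0.733 of the range of the group. For Pank1 it was again the lowest control, with a gap of 0.82 of the range. Control 616 also had the most outlier spots of the 10 arrays. It was lowest in the hepatocyte, Kupffer, endothelial and erythroid marker means. It was highest in the biliary and skeletal muscle means, which were below the reference. The part of these features in the member values was not tested.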

How the results depend on the processing

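Over 21 alternatives for the arrays the difference of Nudt7 ran from -1.05 to -0.47 and kept its sign in all of them, as did those of Nudt19 (0.33 to 0.71), Acot3 (0.67 to 1.17) and Acot4 (0.40 to 0.66). The smallest size for Nudt7, -0.47, was with the dyes as labelled. The other filters cannot change a probe's own difference, and both forms of the fixed slide block gave the same value. The 21 alternatives are therefore not separate checks. The sign was kept in 21 for Pank3 and Vnn1, 20 for Pank1 and Acot8, 17 for Acot12 and 16 for Acot1. Median centring moved the median of all probes from -0.01 to 0.09, and the members with a lower mean from 5 to 3. Of the members against the reference, 0 were called with the dyes as labelled in place of 8, and Pank3 then turned to 0.0219 (adjusted p = 0.902 by limma). Median centring gave 7, Acot8 being lost, and every other setting run for this count gave 8.

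The 3 probes called between groups became 8 without background correction, 1 with processed signals, 1 with median centring, 0 with the dyes as labelled (106 at an unadjusted p below 0.05), 0 without slide 141 (2383), 0 with slide as a fixed block in either form, 14 with slide as a random block, 5 with the filter on all 10 arrays, and 1 without controls 832, 522 and 616. Leaving out 1 array gave 1 to 33, with 33 without control 616 and 1 without control 832 or 391 or hypothyroid 576 or 626. The cause of these changes was not tested. No gene of the 6 lists was called under any alternative.

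For the TLDA same-numbered animals deviated together at 0.04, -0.09, 0.11 and -0.23 over 257 miRNAs, so the numbers were not taken as pairs. With the replicate block the difference was -0.23 for miR-103 (adjusted p = 0.784 by limma) and 0.26 for miR-107 (adjusted p = 0.767). Leaving out 1 animal moved miR-103 between -0.36 and 0.06, the last without hypothyroid 4. The animal numbers of the arrays are not shared between the groups, and there the 4 slides with both groups formed pairs, with Nudt7 at -0.98 (SE 0.09) in that fit.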

Other observations

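Among the marker lists of other cell types, 5 of 5 skeletal muscle markers had a lower mean in hypothyroid liver. Of these, 2 passed at an unadjusted p below 0.05 and 0 were called after adjustment by limma. The median difference of the list was -0.26, or -0.17 without control 616. Its mean level per array ran from -1.21 to -0.45 in the control livers, highest in control 616. In the hypothyroid livers it ran from -1.33 to -1.15, so all these means were below the reference. All 7 exocrine pancreas markers had a lower mean (median difference -1.99, unadjusted p below 0.05 for 7 by limma, 0 called). Only control 832, 522 and 616 were high in them. The marker means of control 881 and 391, 0.34 and 0.27, were within the range of the hypothyroid livers, 0.17 to 0.36. The median differences of the Kupffer (5 kept), endothelial (4) and erythroid (4) lists were 0.20, 0.10 and 0.07, and -0.05, -0.06 and -0.06 without control 616. Of 4 biliary markers 3 had a lower mean (median difference -0.35, or -0.12 without control 616), and 0 were called or passed at an unadjusted p below 0.05 by limma.

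The 3 probes called between the groups were not members. Gstm1, a glutathione S-transferase of liver, was higher by 1.43 (SE 0.17, adjusted p = 0.0481 by limma), and the other 2, which had no current symbol here, differed by -1.08 and -1.80.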
